A study of Bos taurus with 17 samples.

Results

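The genes described here encode nuclear subunits of the oxidative phosphorylation system, the mitochondrial machinery that makes most of the ATP of a respiring cell. They were chosen by gene symbol alone: NDUFA, NDUFB, NDUFC, NDUFS and NDUFV genes for complex I, SDHA to SDHD for complex II, UQCR genes and CYC1 for complex III, CYCS for cytochrome c, COX4 to COX8 genes other than COX4I2 for complex IV, and ATP5 genes for complex V. The rule found 78 of the 12894 genes in the expression table. Of these, 37 belong by name to complex I, 4 to complex II, 9 to complex III, 1 to cytochrome c, 9 to complex IV and 18 to complex V. No gene named COX5B, COX6B1, COX6C or COX7C was among them, so the complex IV values cover only part of that complex. All 78 passed the filter on low values that left 10960 genes for testing. Grouping by symbol places NDUFA4 with complex I, although its protein is known as a component of complex IV, and it places the ATPase inhibitor ATP5IF1 and the supercomplex factor COX7A2L among the subunits.

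The cells were bovine mesenchymal stem cells from umbilical cord, grown as a primary culture, and their polyadenylated RNA was measured by MARS-seq, which reads the 3′ ends of transcripts. One day after seeding, cells on plastic plates were sampled untreated (day 0, 3 libraries) or placed in a myogenic differentiation medium and sampled after 3 days (3 libraries) or 21 days (2 libraries). Other cells were differentiated for 21 days on a scaffold, either with the same medium (media scaffold, 4 libraries) or on a smart scaffold that carried the growth factors itself, which the medium then lacked (3 libraries). The differentiation medium held low serum, insulin-transferrin-selenium type supplement (ITS), albumin, dexamethasone, ascorbic acid 2 phosphate, vascular endothelial growth factor, insulin-like growth factor and a fibroblast-like growth factor, per the labels' protocols. The labels name no donor, passage or clone, and libraries within a group are described as biological replicates. Scaffolds sampled at day 0 are not analysed here. A scaffold library therefore differs from the day 0 plastic libraries in surface, time and differentiation treatment, and these cannot be told apart. The plastic libraries of day 3 and day 21 differ from day 0 in both time and treatment, which cannot be told apart either.

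In oxidative phosphorylation, complex I and complex II pass electrons from NADH and succinate to ubiquinone, complex III passes them on to cytochrome c, and complex IV hands them to oxygen. Complexes I, III and IV pump protons across the inner mitochondrial membrane as they do so, and complex V, the ATP synthase, lets the protons flow back through a ring of c subunits to drive ATP synthesis. Most subunits are nuclear genes, a few core ones are encoded in mitochondrial DNA, and some complex IV subunits come in forms that are typical of heart and skeletal muscle.

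Reads recovered from the deposited values, summed over all genes in the expression table, numbered 2197356 to 15483745 per library (median 7510490). They were lowest in the second plastic library of day 21. Reads outside that table are not known, and shares of the reads of a library below leave them out. Replicates correlated at 0.962 to 0.992 over all tested genes on the log2 scale, and none of the 16 replicate pairs differed by as little as sampling noise (chi-square per degree of freedom of 2.42 to 17.6). The spread was uneven: 13 members differed by more than 1.5-fold between the second and the third plastic libraries of day 3, and 8 did so between both plastic libraries of day 21. All 9 mesenchymal markers were present, and their summed level was 147250 to 158342 normalized reads at day 0, 207765 to 214569 on plastic at day 21 and 478337 to 550499 over both scaffolds. On the scaffolds these sums are led by the collagens, such as COL1A1 with a mean of 228228 on the media scaffold and 46336 at day 0. At day 0 COL1A1, COL1A2 (18884.5) and COL3A1 (6142) did not make up most of the sum. Other markers moved differently. On plastic at day 21, relative to day 0, THY1 rose from a mean of 401 to 18122 (log2 difference 5.49). ENG also rose there (2.35) and CD44 fell (−2.09). On the media and smart scaffolds THY1 rose relative to day 0 (5.27 and 4.66), and ENG was lower than on plastic at day 21 (−2.46 and −2.55). The 6 cell division genes summed to 3352 to 3815 normalized reads at day 0 and to 152 to 263 over all day 21 libraries. Of the 8 skeletal muscle markers, 5 were in the table, and their sum moved from 947 to 1033 at day 0 to between 10691 and 14405 at day 21. That sum is almost all DES, which had a mean of 993 at day 0 and 13070, 11718 and 10978.5 in the plastic, media and smart scaffold groups of day 21. TNNT3 rose on plastic at day 21 (mean 72.7, against 0.309 at day 0) and had means of 0.656 and 0.383 on the scaffolds. The 5 blood and immune markers in the table summed to 26.8 to 30.2 at day 0, 28.6 to 79.5 on plastic at day 3, 130 to 182 on plastic at day 21 and 22.2 to 30.8 on the scaffolds, with CD34 at 0 at day 0. Endothelial markers (2 of 6 in the table) summed to at most 55.0 normalized reads, and epithelial ones (2 of 6) to at most 6.93, in any library. The part that these shifts play in the results below was not tested. In such bulk libraries, fewer cells of a type and less RNA per cell cannot be told apart.

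The deposited values are normalized reads, meaning reads divided by 1 scaling factor per library, and all levels below are in that unit. Differences are on the log2(normalized reads + 1) scale and are given with their standard error (SE). A gene was called when limma's test gave an adjusted p under 0.05 (Benjamini-Hochberg over all 10960 genes) with a difference of at least 1 on that scale, and "rose" and "fell" are kept for called genes. Levels are not compared between genes, because 3′ reads are given without a length or annotation scale.

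**Figure D1:**
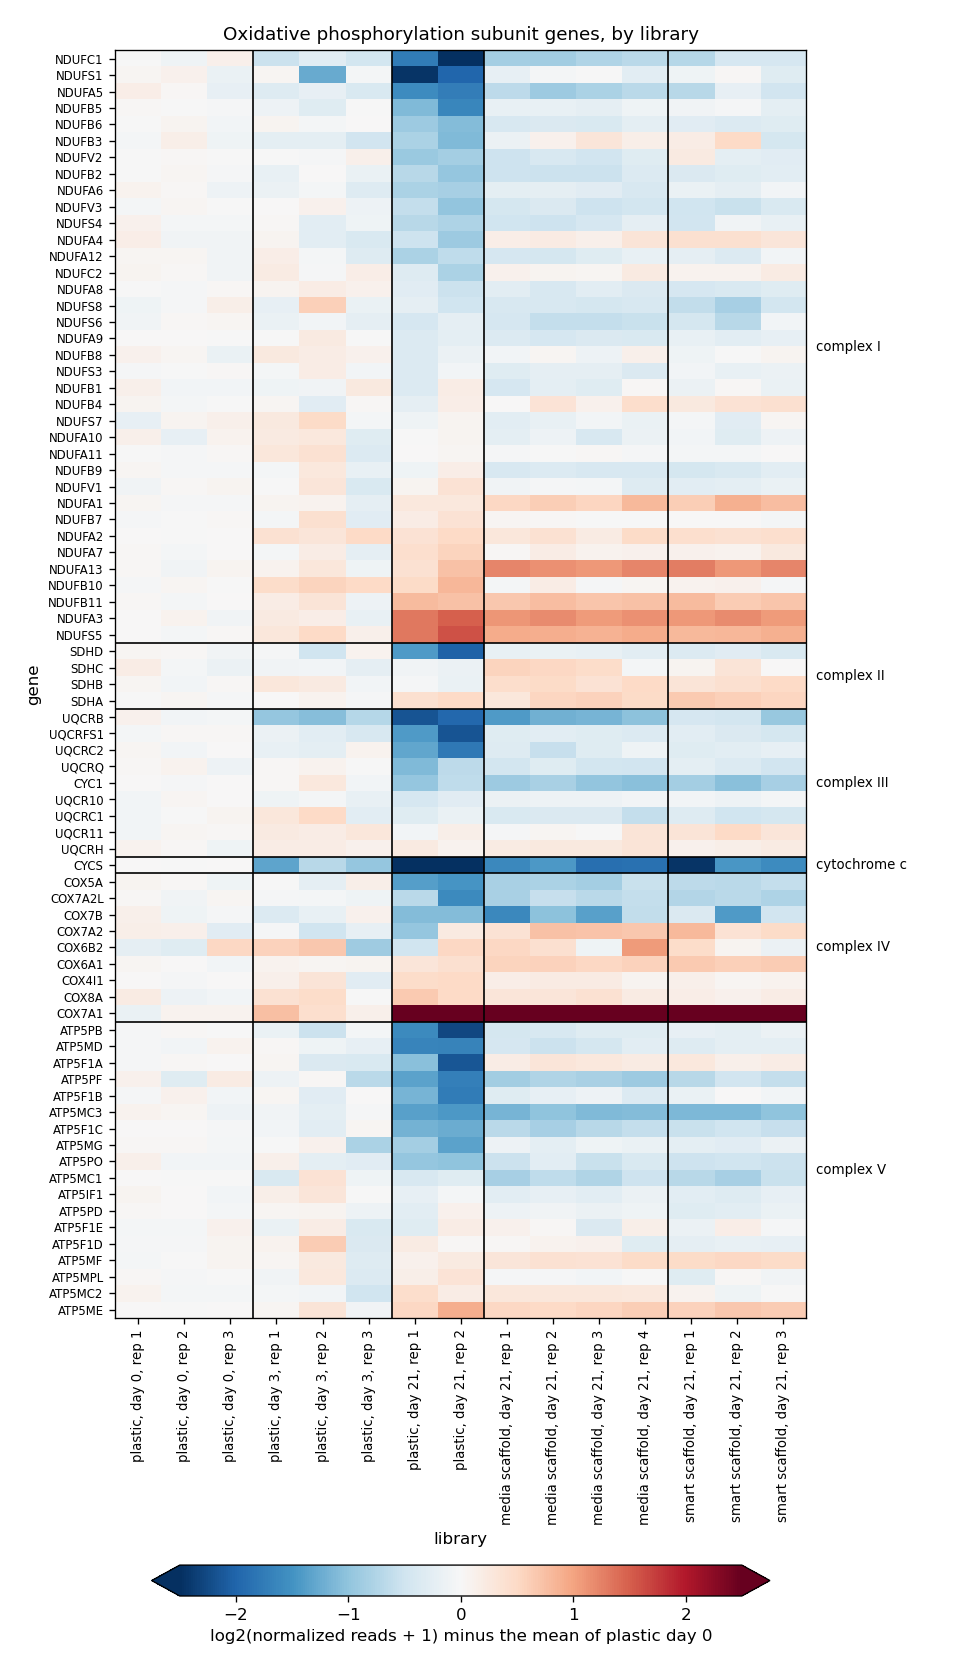
Each cell of the heatmap shows a subunit gene in 1 of the 15 libraries, as log2(normalized reads + 1) minus the gene's mean in plastic day 0, with blue for lower and red for higher and the colour scale cut at its ends. Genes are grouped by complex and sorted by their change on plastic at day 21. The 2 plastic libraries of day 21 carry the darkest blue block, COX7A1 is dark red in every day 21 library, and most other cells are pale.

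After 3 days of differentiation on plastic, limma called no subunit gene in either direction, while 10% of all tested genes were called (6.27% higher and 3.73% lower). On the recovered reads DESeq2 also called 0 and edgeR called 1, lower. At an unadjusted limma p under 0.05 there were 7 members higher and 4 lower. No share of all tested genes was taken at that unadjusted threshold, so these counts stand without a background. With the adjusted p alone and no minimum fold, 5 members were higher and 2 lower, which is 6.41% and 2.56% of the 78 against 16.5% and 15.3% of all tested genes. Day 3 libraries lay apart from all day 0 libraries for 8 members that were higher and 8 that were lower, beside 21.1% and 23.2% of all tested genes. The median difference over the members was −0.02, the same as over all tested genes. The largest difference belonged to CYCS, the soluble electron carrier between complexes III and IV. Its level was 295, 291 and 296 normalized reads in the day 0 libraries and 117, 182 and 150.0 in the day 3 libraries. All 3 day 3 libraries lay below day 0, and the log2 difference of −0.99 (SE 0.23, limma adjusted p = 0.00367) stopped just short of the fold required for a call. UQCRB, the ubiquinone-binding accessory subunit of complex III, was similar: 495, 439.9 and 447 at day 0 against 236, 219 and 278 at day 3, again without overlap (log2 difference −0.92, SE 0.15, limma adjusted p = 0.000148). Among the 5 that were higher at any fold, NDUFB10 of complex I had 1643, 1729 and 1653 at day 0 and 2312, 2468 and 2376 at day 3, with a log2 difference of 0.51 (SE 0.10). NDUFA2 differed by 0.39, NDUFS5 by 0.30 and COX7A1 by 0.43.

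By day 21 on plastic, 20 subunit genes had fallen relative to day 0 and 3 had risen. That is 25.6% and 3.85% of the members, beside 24.1% lower and 21.2% higher among all tested genes (45.2% in either direction). The share of members that fell is near the background and is no result about the members, and the share that rose was below it. The median member difference was −0.30, against −0.06 over all tested genes. At any fold, 37 members were lower and 14 higher (47.4% and 17.9%, beside 36.3% and 33.4% of all tested genes). Libraries did not overlap for 41 lower and 19 higher members, beside 41.1% and 38.6% of all tested genes. Giving every library an equal total shifted the all-gene median by −0.26, to −0.31, and turned the calls over all genes from 2320 higher and 2636 lower to 1812 and 3276. On that scale 3 members rose and 30 fell, with a member median of −0.57.

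**Figure D2:**
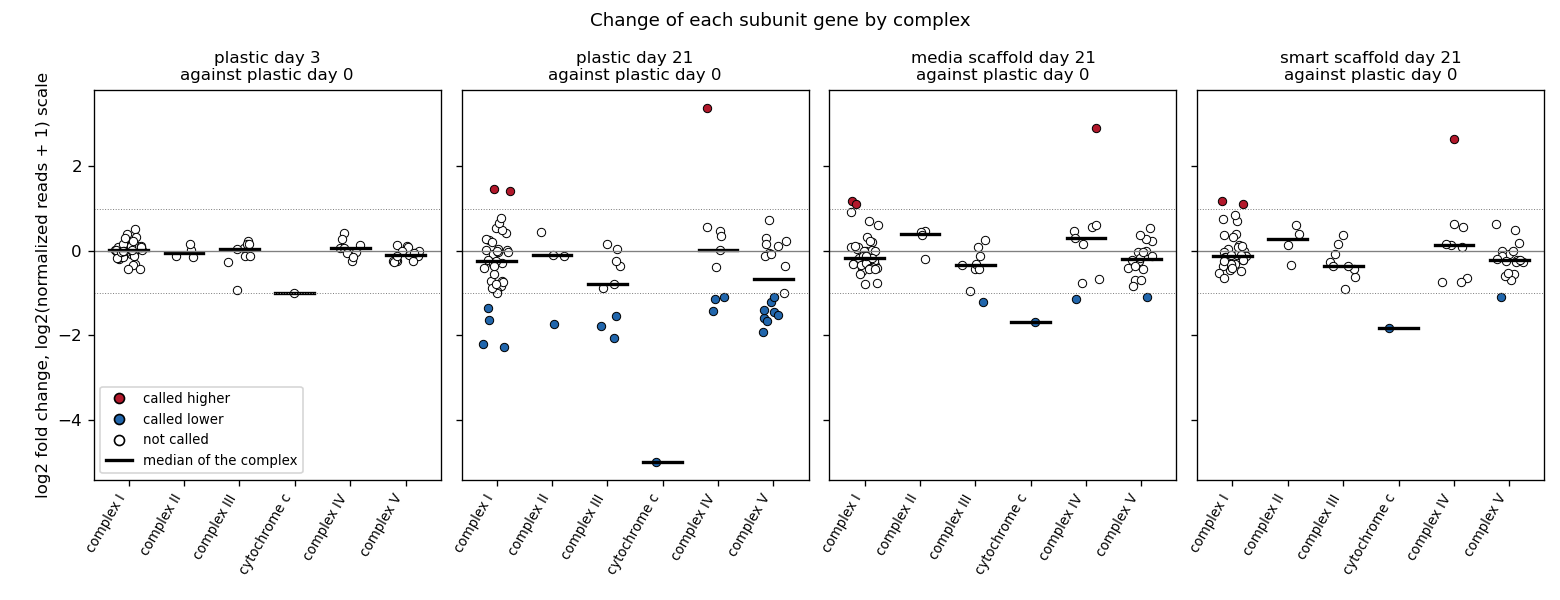
Each point is 1 subunit gene, placed by complex, with its log2 difference from plastic day 0 on the vertical axis, with a panel for each of plastic day 3 and the 3 day 21 groups. Filled points are called genes (blue lower, red higher), dotted lines mark a difference of 1 in either direction and bars give the median of a complex. On plastic at day 21, filled blue points appear in every complex, and on either scaffold the points gather within the dotted lines except for a few.

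By complex, the counts on plastic at day 21 stand beside 24.1% lower and 21.2% higher among all tested genes. Complex V had 8 of 18 genes fall and none rise, with a median difference of −0.67, and complex III had 3 of 9 fall and none rise, with a median of −0.80. Complex I had 4 of 37 fall and 2 rise (median −0.25), complex II had 1 of 4 fall (median −0.11), and complex IV had 3 of 9 fall and 1 rise (median 0.01). The shares that fell in complexes II, III and IV rest on 1 to 3 genes near the background, and the share in complex I is below it. No test compared the complexes with each other.

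Within complex I, 1 of the 7 core subunits fell, NDUFS1, the large iron-sulfur protein of the NADH-oxidizing arm. It had 199, 208 and 172 normalized reads at day 0, and 34.5 and 48.1 on plastic at day 21. Both day 21 libraries lay far below day 0, with a log2 difference of −2.21 (SE 0.28, limma adjusted p = 1.89e-06). On plastic at day 3 it had 198, 79.5 and 186, so 1 of those 3 libraries was already low. NDUFV1, the flavoprotein where NADH is oxidized, had 1484, 1595 and 1636 at day 0 and 1639.5 and 2021 at day 21 (log2 difference 0.21, SE 0.16, limma adjusted p = 0.23).

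Of the 30 accessory subunits of complex I, 3 fell and 2 rose. NDUFC1, a small membrane-arm subunit, had 486, 456 and 533 at day 0 and 145 and 68.7 at day 21, a log2 difference of −2.29 (SE 0.21). NDUFA5 had 325, 294 and 249 at day 0 and 96.6 and 85.9 at day 21 (log2 difference −1.65, SE 0.16). NDUFB5 of the membrane arm had 1092, 1065 and 1054 against 497 and 347 (log2 difference −1.36, SE 0.13). Groups did not overlap for any of the 3. The risers went against the median of their complex. NDUFS5, an accessory subunit despite its name, had 1692, 1625 and 1711 at day 0 and 4187 and 5082 at day 21 (log2 difference 1.46, SE 0.11, limma adjusted p = 3.55e-09). NDUFA3 had 1539, 1625 and 1440.0 against 3819 and 4337 (log2 difference 1.41, SE 0.12), so both day 21 libraries held more than any day 0 library for each riser. NDUFB8, a membrane-arm subunit whose protein is often used as a marker of assembled complex I, had 3381, 3258 and 2794 at day 0 and 2463 and 2835 at day 21, with overlapping groups (log2 difference −0.25, limma adjusted p = 0.0594).

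Complex II, which is also the succinate dehydrogenase of the citric acid cycle, was split between its parts. SDHD, a membrane anchor that helps to bind ubiquinone, had 1228, 1211 and 1107 at day 0 and 442 and 289 on plastic at day 21 (log2 difference −1.72, SE 0.16, limma adjusted p = 5.87e-08). The other anchor, SDHC, had 373, 320.0 and 298 against 308 and 296 (log2 difference −0.12, SE 0.16). The iron-sulfur subunit SDHB had 2942, 2719 and 2905 against 2791 and 2560.0 (log2 difference −0.09, SE 0.11). The flavoprotein SDHA, the catalytic subunit, was higher at any fold but below the fold of a call, with 2304, 2418 and 2268 against 3062 and 3302 (log2 difference 0.45, SE 0.10, limma adjusted p = 0.000663). SDHD and SDHA thus lay on opposite sides of day 0 without overlap, while SDHB and SDHC overlapped it.

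In complex III, UQCRB fell further, to 102 and 117 from 439.9 to 495 at day 0 (log2 difference −2.06, SE 0.17). UQCRFS1, the Rieske iron-sulfur protein that takes electrons from ubiquinol, had 1705, 1793 and 1794 at day 0 and 664 and 395 at day 21 (log2 difference −1.78, SE 0.15, limma adjusted p = 1.41e-08). UQCRC2, a core structural subunit, had 534, 489.5 and 521 against 209.8 and 148 (log2 difference −1.54, SE 0.15). None of these groups overlapped. The paired core subunit UQCRC1 had 2598, 2726 and 2880.1 against 2199.9 and 2443, which did not pass the test (log2 difference −0.24, limma adjusted p = 0.195). CYC1, the cytochrome c1 that reduces cytochrome c, lay between them with 3890.1, 3779 and 3906 against 1976 and 2498 (log2 difference −0.80, SE 0.12), lower at any fold and short of a call.

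CYCS had the largest difference of all members. Its 2 plastic libraries of day 21 held 9.66 and 6.87 normalized reads, against 291 to 296 at day 0, a log2 difference of −5.01 (SE 0.26, limma adjusted p = 3.08e-11). These levels rest on 7 and 2 reads, for which exact Poisson 95% intervals run from 3.88 to 19.9 and from 0.832 to 24.8 normalized reads. Pooled counts of 1716 at day 0 and 9 at day 21 give a level 33.2-fold higher at day 0, with an exact interval of 17.5 to 72.8. These intervals cover counting error only, since reads may be copies of 1 molecule. CYCS, COX7A2, COX7B and COX6B2 were the 4 members with under 10 reads in at least 1 library.

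Complex IV held both rises and falls. COX7A1, the heart and skeletal muscle form of subunit VIIa, had 75.2, 89.6 and 90.002 normalized reads at day 0 and 806 and 999.9 on plastic at day 21, a log2 difference of 3.39 (SE 0.15, limma adjusted p = 4.98e-12). Its widely expressed counterpart COX7A2 was read little, with 16.2, 15.998 and 11.8 against 6.90 and 17.2 and overlapping groups (log2 difference −0.37, SE 0.34). The related COX7A2L, which ties complexes III and IV into supercomplexes, fell from 2209, 2029.6 and 2224 to 1344 and 711 (log2 difference −1.14, SE 0.17), and without the second day 21 library its difference was −0.68 and no longer a call.

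COX5A, a nuclear subunit of the early assembly core, fell from 4551, 4399 and 4037 to 1657 and 1563 (log2 difference −1.42, SE 0.12, limma adjusted p = 8.29e-09). COX7B fell from 65.4, 54.9 and 58.4 to 27.6 and 27.5 (log2 difference −1.08, SE 0.31), a call that array weights in limma ended (limma adjusted p = 0.055). In contrast, the largest nuclear subunit COX4I1 had 5175, 5043 and 5165 at day 0 and 7023 and 7237 at day 21, higher at any fold with no overlap (log2 difference 0.48, SE 0.13). COX6A1, the form of subunit VIa outside striated muscle, had a log2 difference of 0.36 and COX8A one of 0.57, both higher at any fold. The muscle forms COX6A2 and COX8B are not analysed here. On the scaffolds COX7A2 had 18.9 to 24.9 and 19.1 to 26.4 normalized reads. Its differences from day 0 did not pass the test there (log2 0.62 and 0.56, limma adjusted p = 0.0659 and 0.121). The rise of COX7A1 thus came with no called change of COX7A2. With 5 to 30 reads of COX7A2 per library, the test could miss a change in it.

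In complex V, the fallen genes sat in the catalytic head, the stalks and the membrane part. The catalytic subunit beta, ATP5F1B, had 6732, 7412 and 6598 normalized reads at day 0 and 3067 and 2065 at day 21 (log2 difference −1.46, SE 0.14, limma adjusted p = 7.61e-08). Subunit alpha, ATP5F1A, fell from 3055, 3187 and 3122 to 1522 and 711 (log2 difference −1.58, SE 0.21), and its difference was −1.04 without the second day 21 library. The gamma subunit of the rotating central stalk, ATP5F1C, had 3315, 3324 and 3239 against 1448 and 1395 (log2 difference −1.21, SE 0.10). All day 21 libraries lay below all day 0 libraries for these 3.

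Of the peripheral stalk, which holds the head still, ATP5PB fell from 1754, 1841 and 1795 to 593 and 371 (log2 difference −1.93, SE 0.16) and ATP5PF from 1751, 1323 and 1866 to 647 and 495 (log2 difference −1.52, SE 0.18). The small membrane subunits ATP5MD (log2 difference −1.66, SE 0.11) and ATP5MG (−1.10, SE 0.19) also fell, ATP5MG to 1232 and 876, with a difference of −0.85 and no call when the second day 21 library was left out. ATP5ME, another small membrane subunit, was higher at any fold, with 2932, 2919.6 and 2927 at day 0 and 4202 and 5525 at day 21 (log2 difference 0.72, SE 0.12). The inhibitor ATP5IF1, which blocks ATP hydrolysis when the proton gradient fails, had 7171, 6891 and 6508 against 5972 and 6584 with overlap (log2 difference −0.13, limma adjusted p = 0.264).

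The c ring is built from 1 mature protein that 3 nuclear genes encode, and these genes parted. ATP5MC3 fell from 10147, 9868 and 8824 normalized reads to 3733 and 3553 (log2 difference −1.40, SE 0.10, limma adjusted p = 1.18e-09). ATP5MC1 had 2863, 2809 and 2820.5 against 2146 and 2282 (log2 difference −0.36, SE 0.16, limma adjusted p = 0.0513), and ATP5MC2 had 1487, 1359 and 1354 against 1889 and 1594 (log2 difference 0.31, SE 0.12, limma adjusted p = 0.0341). Together, the 3 genes gave 13844 ± 768 normalized reads at day 0 (SD, n = 3), 12895 ± 295 on plastic at day 3 (SD, n = 3) and 7599 ± 240.0 on plastic at day 21 (SD, n = 2). ATP5MC3 carried most of that decline in the sum.

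**Figure D3:**
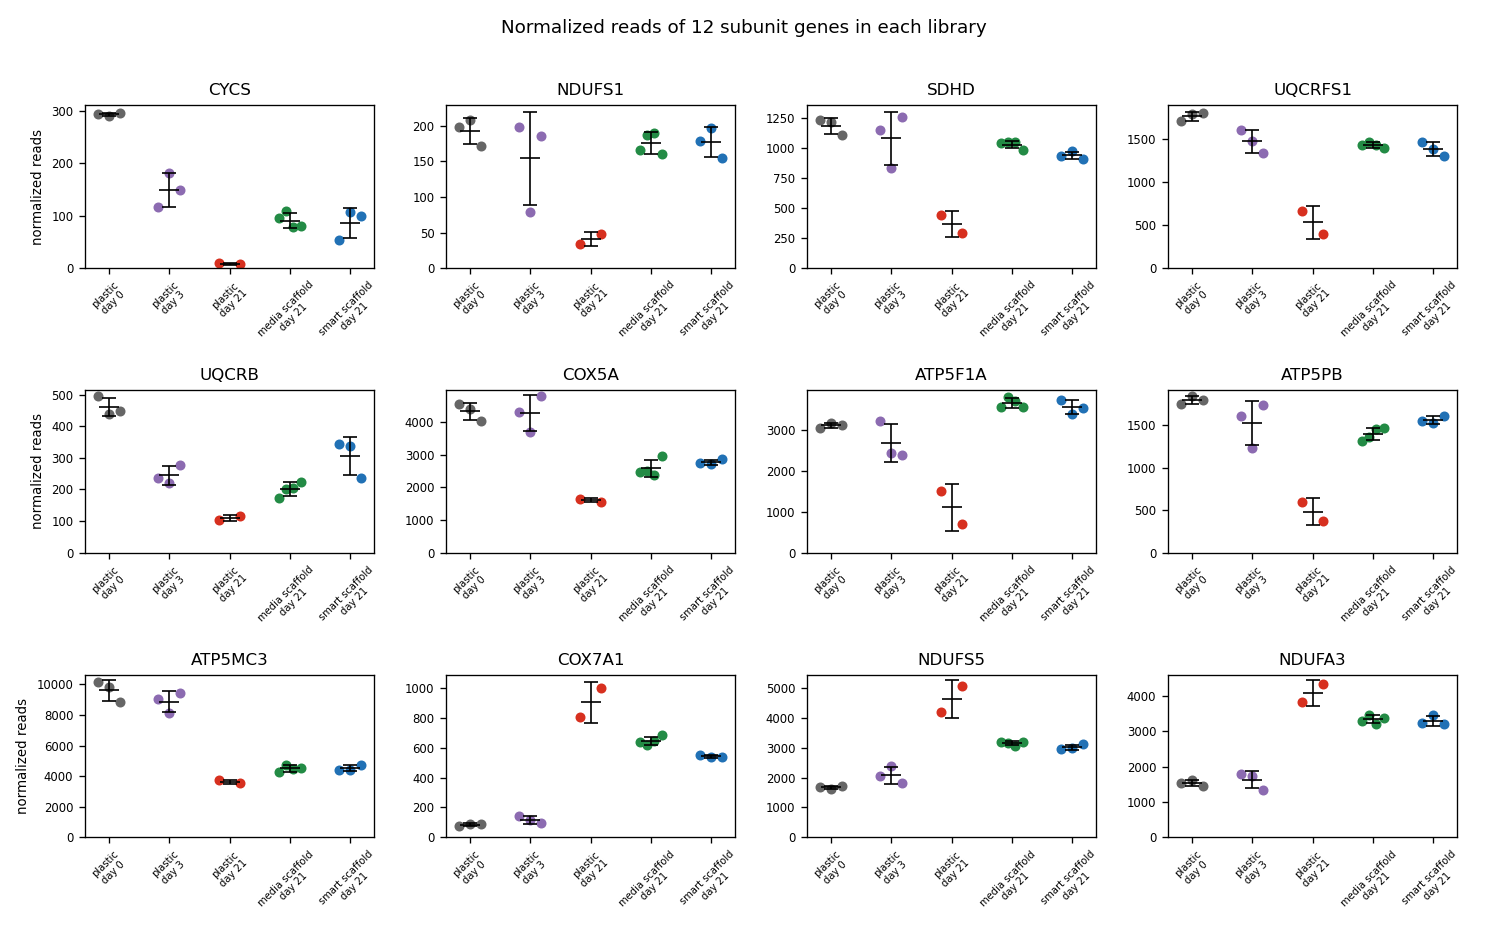
Each panel shows the normalized reads of 1 of 12 subunit genes in every library, by group, on a linear axis that starts at 0, with bars for the mean and SD of the group. CYCS, NDUFS1, SDHD, UQCRFS1, ATP5F1A and ATP5PB are lowest on plastic at day 21 and stand higher on both scaffolds, ATP5MC3 and COX5A stay below day 0 on all 3 day 21 surfaces, and COX7A1, NDUFS5 and NDUFA3 are above day 0 on all 3.

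The 2 plastic libraries of day 21 were not equally low: 18 of the 20 fallen genes were lower in the second library than in the first, and 6 of the 20 differed between them by more than 1.5-fold. The second library is the one with the fewest reads of all 15. The median member difference from day 0 was −0.34 without the second library and −0.19 without the first, against −0.30 with both.

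Set against day 3 in place of day 0, 19 members fell and 3 rose on plastic at day 21 (24.4% and 3.85%, beside 19.4% lower and 15.5% higher among all tested genes, 34.9% in either direction). At any fold, 41 were lower and 12 higher (52.6% and 15.4%, beside 32.8% and 29.4%), and libraries did not overlap for 42 and 13 members, beside 33.5% and 31.9% of all tested genes. The median member difference was −0.32, against −0.04 over all tested genes. Equal library totals, which shifted the all-gene median by −0.32, gave 27 lower and 2 higher members. They also turned the calls over all tested genes from 2124 lower and 1700 higher to 3063 and 1149. This comparison uses the same day 21 libraries as the last, so its values are given beside it and not as further evidence. CYCS differed by −4.02, NDUFC1 by −1.86, NDUFS1 by −1.79 and ATP5PB by −1.69 (log2, all called). The 3 genes that rose were COX7A1 at 2.96, NDUFA3 at 1.34 and NDUFS5 at 1.16, and NDUFS5 was no longer called at equal library totals (0.83) or under quantile normalization (0.92). NDUFB6 of complex I was called here (−1.01, SE 0.09) with 2197, 2033 and 2114 normalized reads at day 3 and 1114 and 989.6 at day 21, and its difference was −0.92 without the second day 21 library and −0.98 without the first day 3 library, neither a call. The log2 difference of ATP5F1A was −1.35, of COX7A2L −1.08 and of NDUFB5 −1.22, and without the same library they were −0.81, −0.62 and −0.96 and no longer calls.

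On the media scaffold at day 21, 3 members had risen and 4 had fallen relative to plastic day 0 (3.85% and 5.13%, beside 17.5% higher and 14.9% lower among all tested genes, 32.4% in either direction). On the smart scaffold, 3 had risen and 2 had fallen (3.85% and 2.56%, beside 16.5% and 14.1%, 30.6% in either direction). With equal library totals the all-gene median shifted by −0.25 and −0.22. On the media scaffold this gave 1 member higher and 9 lower, beside 1493 and 2273 of all tested genes (1913 and 1635 before). On the smart scaffold it gave 1 and 3, beside 1421 and 2161 (1808 and 1546 before). Quantile normalization gave 3 and 6 on the media scaffold (beside 1740 and 1885) and 2 and 3 on the smart scaffold (beside 1667 and 1702). At any fold, 16 members were higher and 33 lower on the media scaffold (20.5% and 42.3%, beside 32.5% and 30.9% of all tested genes), and 15 were higher and 27 lower on the smart scaffold (19.2% and 34.6%, beside 30.8% and 29.9%). Libraries did not overlap with day 0 for 17 higher and 38 lower members on the media scaffold (beside 36.7% and 35.7% of all tested genes) and for 21 and 35 on the smart scaffold (beside 36.9% and 36%). The day 0 libraries are shared by both comparisons and by those on plastic.

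Of the genes called on a scaffold relative to day 0, NDUFA13 was the one not called on plastic at day 21 relative to day 0. CYCS had 95.2, 108, 79.4 and 80.0 normalized reads on the media scaffold and 52.8, 107 and 98.9 on the smart scaffold, all below the 291 to 296 of day 0 (log2 differences −1.70, SE 0.22, and −1.82, SE 0.23). ATP5MC3 had 4262 to 4758 on the media scaffold and 4409 to 4754 on the smart scaffold, below the 8824 to 10147 of day 0 (log2 differences −1.09 and −1.08). The sum of the 3 c subunit genes was 7975 ± 328 on the media scaffold (SD, n = 4) and 7675 ± 376 on the smart scaffold (SD, n = 3), close to its level on plastic at day 21.

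UQCRB fell on the media scaffold, with 172, 199.99, 206 and 225 (log2 difference −1.20, SE 0.14), and was lower at any fold on the smart scaffold, with 343, 337 and 237 (−0.61, SE 0.15). COX7B fell on the media scaffold, with 18.9, 28.9, 22.7 and 38.5 (log2 difference −1.15, SE 0.26), and without the first of these libraries its difference was −0.99 and no longer a call. On the smart scaffold COX7B had 46.2, 21.7 and 42.5 (log2 difference −0.75, SE 0.28).

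COX7A1 rose on both scaffolds, to 638, 619.9, 643 and 685 on the media scaffold and 549.7, 536 and 537 on the smart scaffold, from 75.2 to 90.002 at day 0 (log2 differences 2.92, SE 0.13, and 2.66, SE 0.14). NDUFA3 stood at 3198 to 3467 and 3194 to 3456 (log2 differences 1.12 and 1.10). NDUFA13, a complex I subunit also known as GRIM-19, rose to 1092, 1023, 993 and 1092 on the media scaffold and 1128, 987 and 1086 on the smart scaffold, from 473, 437 and 488 at day 0 (log2 differences 1.17, SE 0.11, and 1.19, SE 0.11). Its plastic libraries of day 21 had 604 and 769.7, between day 0 and the scaffolds (log2 difference from day 0 0.55, SE 0.13). When libraries were rescaled to the same total, NDUFA3 (0.87 on either scaffold) and NDUFA13 (0.92 and 0.96) stopped short of a call and COX7A1 was the riser that was left.

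Several landmark subunits lay near their day 0 level on the scaffolds, as far as the spread allows. Others, such as CYC1 and COX5A, differed from it but stopped short of the fold of a call. NDUFS1 had 166, 187, 190.3 and 159.9 on the media scaffold and 178, 197 and 155 on the smart scaffold, overlapping the 172 to 208 of day 0 (log2 difference −0.13 for each, SE 0.23 and 0.25). ATP5F1A, at 3569 to 3829 and 3412 to 3752, was above every day 0 library, with log2 differences of 0.24 and 0.19 that did not pass the test. SDHA (0.47 and 0.60) and SDHB (0.45 and 0.40) were higher at any fold on both scaffolds, and COX6A1 was too (0.56 and 0.63). CYC1 (−0.94 and −0.91), COX5A (−0.75 and −0.64), COX7A2L (−0.67 and −0.73), UQCRC1 (−0.42 and −0.42) and UQCRFS1 (−0.30 and −0.35) were lower at any fold on both. COX8A differed by 0.30 and 0.16, COX4I1 by 0.16 and 0.09, NDUFV1 by −0.12 and −0.22, and ATP5F1B by −0.24 and −0.07, and of these 4 genes COX8A on the media scaffold passed the test at any fold (limma adjusted p = 0.0258).

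Compared directly at day 21, 12 members were higher on the media scaffold than on plastic and 0 lower (15.4% and 0%, beside 20.8% higher and 14.6% lower among all tested genes, 35.4% in either direction). On the smart scaffold 15 were higher and 0 lower (19.2% and 0%, beside 21.4% and 16%, 37.5% in either direction). Both shares that were higher lay at or below the background, and both shares that were lower were below it. For the lower direction edgeR and DESeq2 also gave 0 on each scaffold. At an unadjusted limma p under 0.05 there were 10 lower members on the media scaffold and 12 on the smart scaffold, without an all-gene background. At any fold, 38 members were higher and 7 lower on the media scaffold (48.7% and 8.97%, beside 32.9% and 30.6%), and 40 were higher and 11 lower on the smart scaffold (51.3% and 14.1%, beside 32.8% and 31.1%). Libraries did not overlap for 39 higher and 16 lower members on the media scaffold (beside 35.8% and 35.4%) and for 42 and 19 on the smart scaffold (beside 36.8% and 36.3%). Both comparisons share the 2 plastic libraries of day 21, which also enter the comparison with day 0, so a low value in those libraries appears in all of them. Leaving out the second plastic library gave 8 members higher on the media scaffold and 13 on the smart scaffold.

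CYCS showed the largest of these differences, 3.31 on the media scaffold (SE 0.25) and 3.19 on the smart scaffold (SE 0.26) on the log2 scale. NDUFS1 differed by 2.08 on each scaffold (SE 0.26 and 0.28), with every scaffold library at 155 or more and both plastic libraries at 34.5 and 48.1. ATP5F1A differed by 1.82 and 1.78, ATP5PB by 1.57 and 1.73 and SDHD by 1.52 and 1.39. SDHD had 978 to 1047 on the media scaffold and 909 to 970.0 on the smart scaffold, against 442 and 289 on plastic. UQCRFS1 (1.48 and 1.43), NDUFC1 (1.497 and 1.76), ATP5MD (1.25 and 1.39), ATP5F1B (1.21 and 1.38), UQCRC2 (1.22 and 1.29) and NDUFB5 (1.19 and 1.24) were also called on both, as was NDUFB3 (1.04 and 1.02).

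Without the second plastic library, NDUFC1 (0.96), UQCRC2 (0.97), ATP5F1B (0.93), NDUFB5 (0.93) and NDUFB3 (0.89) were no longer called on the media scaffold. On the smart scaffold the same held for NDUFB5 (0.98), NDUFA4 (0.90) and NDUFB3 (0.87). NDUFB3, which had 186, 212 and 179 normalized reads at day 0 and 110.4 and 89.3 on plastic at day 21, also lost its call on the smart scaffold without that scaffold's first library (0.97) or second library (0.82), and on the media scaffold without the third library there (0.97).

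Called on the smart scaffold but not on the media scaffold were 3 more genes: UQCRB (1.46, SE 0.17), NDUFA5 (1.19, SE 0.16) and NDUFA4 (1.09, SE 0.14). On the media scaffold these had log2 differences of 0.86, 0.89 and 0.92, which passed the test at any fold. Complex IV had no call on either scaffold. Its COX5A (0.67 and 0.78) was higher than plastic at any fold, while COX7A1 (−0.47 and −0.73) and COX4I1 (−0.31 and −0.38) were lower. NDUFS5 (−0.55 and −0.61), NDUFB10 (−0.62 and −0.60) and NDUFA3 (−0.29 and −0.31), which were higher than day 0 on plastic, were also lower on the scaffolds than on plastic at any fold.

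The 2 scaffolds were set against each other to ask whether carrying the growth factors on the scaffold changes expression. By the same rule, limma, edgeR and DESeq2 each called 0 members in either direction. Of all tested genes, limma called 0.073% higher on the smart scaffold and 0.83% lower (8 and 91 genes, 0.903% in either direction). At an unadjusted limma p under 0.05, 5 members were higher and 1 lower, without an all-gene background. At an adjusted p under 0.05 with no minimum fold, 1 member was higher and 0 lower (1.28% and 0%, beside 0.693% and 1.66%), and libraries did not overlap for 9 higher and 8 lower members (beside 10% and 10.4%). That gene was UQCRB, with 172, 199.99, 206 and 225 on the media scaffold and 343, 337 and 237 on the smart scaffold, without overlap (log2 difference 0.59, SE 0.14, limma adjusted p = 0.0344). Member differences ran from −0.34 to 0.59, with a median of 0.02. CYCS differed by −0.13 (SE 0.22), NDUFS1 by 0.01 (SE 0.23), ATP5F1A by −0.04 (SE 0.17) and COX7A1 by −0.26 (SE 0.13). These errors leave room for differences that the test cannot see, so a missing call does not show that the scaffolds act alike.

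Summed over all 78 genes, the libraries held 162370 ± 2619 normalized reads at day 0 (SD, n = 3), 166186 ± 11626 on plastic at day 3 (SD, n = 3), 141611 ± 3003 on plastic at day 21 (SD, n = 2), 154430 ± 2838 on the media scaffold (SD, n = 4) and 156571 ± 1676 on the smart scaffold (SD, n = 3). As a share of all reads of a library this was 2.64%, 2.82%, 1.91%, 2.11% and 2.17%. The decline to day 21 was carried by complex V, with 58211 normalized reads at day 0, 41100 on plastic at day 21, 49407 on the media scaffold and 49619 on the smart scaffold, and by complex III, with 24800, 19665, 21906 and 22758. Complex I summed to 52857 at day 0 and to 53166, 53341 and 54556 in the day 21 groups, slightly higher, while its share of all reads went from 0.858% to 0.717%, 0.728% and 0.754%, lower, so its direction depends on the scaling. The same held for complex IV, whose sum over the genes found was 19511 at day 0 and 21149, 21105 and 20934 at day 21. Complex II reached 8581 and 8617 on the scaffolds, from 6698 at day 0 and 6524 on plastic at day 21. Sums are led by the genes with the most reads, so a gene such as CYCS or NDUFS1 hardly moves them.

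**Figure D4:**
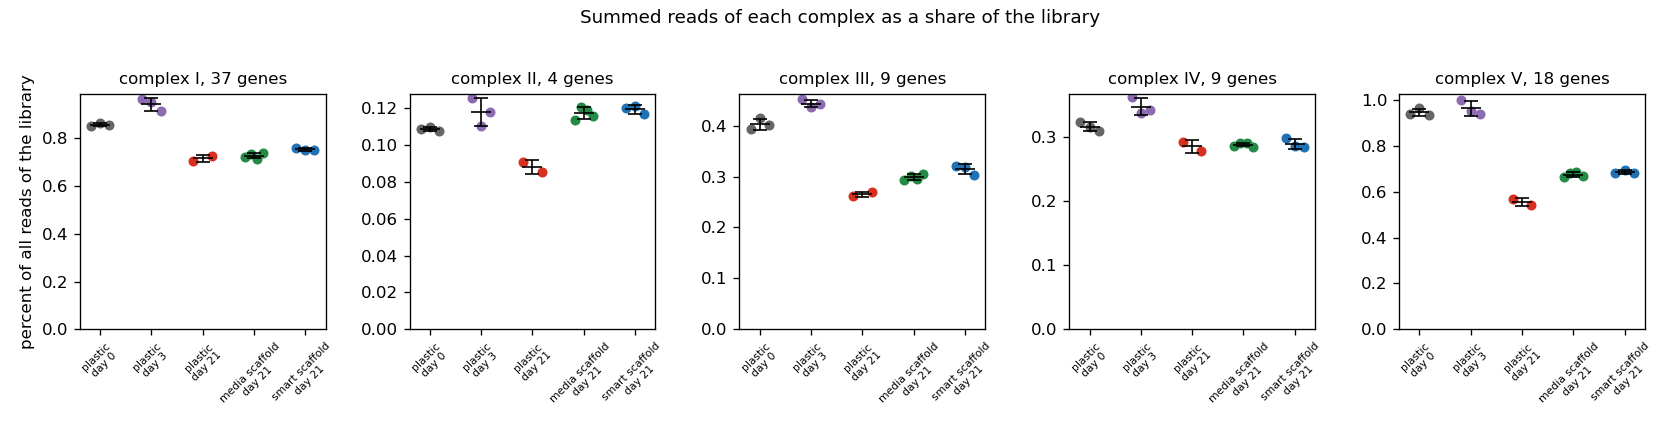
Each panel gives the summed reads of the genes of 1 complex as a percent of all reads of a library, with 1 point per library, bars for the mean and SD of each group, and an axis that starts at 0. Shares of complexes I, III, IV and V are lower in all day 21 groups than at day 0 and day 3, and complex II is lower on plastic at day 21 only.

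Gene groups that work with the complexes were read in the same way, against the same backgrounds. Of 21 genes of the citric acid cycle and pyruvate entry, 11 fell and 0 rose on plastic at day 21 relative to day 0 (background 24.1% and 21.2%). Their median there was −1.04. On the media and smart scaffolds 2 fell on each and 0 rose relative to day 0. The background there was 14.9% and 14.1% lower, and 17.5% and 16.5% higher. DLD is the shared dihydrolipoamide dehydrogenase of the pyruvate and 2-oxoglutarate dehydrogenase complexes. It had 197, 179.7 and 166 normalized reads at day 0 and 27.6 and 13.7 on plastic at day 21 (log2 difference −3.14, SE 0.22). IDH2, the mitochondrial NADP-linked isocitrate dehydrogenase, differed by −2.15 on plastic. CS, the citrate synthase often used as a measure of mitochondrial content, was picked after its values were seen. It had 837, 727 and 656 at day 0 and 174 and 158 on plastic at day 21 (log2 difference −2.14, SE 0.13). Against plastic at day 21, 8 of the 21 were higher on the media scaffold and 8 on the smart scaffold, with 0 and 1 lower (background 20.8% and 21.4% higher, 14.6% and 16% lower), and DLD differed by 3.20 and 3.18.

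Of 8 carriers and outer membrane channels tested, 5 fell and 0 rose on plastic at day 21 (background 24.1% and 21.2%). SLC25A5, an ADP/ATP carrier, had 1722, 1612 and 1583 normalized reads at day 0 and 225 and 107 at day 21 (log2 difference −3.39, SE 0.21), and VDAC2, an outer membrane channel, differed by −2.25. Against plastic at day 21, 5 of the 8 were higher on the media scaffold and 6 on the smart scaffold (background 20.8% and 21.4%). SLC25A5 differed by 1.61 and 1.58 there, and by 1.08 and 1.04 without the second plastic library. VDAC1, the other channel plotted, had 109 and 144 on plastic at day 21 and 329 to 368 on the smart scaffold (log2 difference 1.46). The 20 symbols of mitochondrial import matched 21 genes, so at least 1 symbol is counted more than once. Of these 21, 13 fell on plastic at day 21 and 12 and 9 on the media and smart scaffolds relative to day 0. None was higher (background 24.1%, 14.9% and 14.1% lower, and 21.2%, 17.5% and 16.5% higher). TOMM20, a receptor of the outer membrane, had a log2 difference of −2.96 on plastic, and TOMM40, the import pore, one of −2.36 on each scaffold.

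Assembly factors fell on plastic at day 21 in 8 of 16 cases for complex I, 0 of 4 for complex II, 1 of 5 for complex III, 5 of 22 for complex IV and 2 of 5 for complex V, and 2 factors of complex IV rose (background 24.1% lower and 21.2% higher). The shares that fell for complexes III and IV are near that background and are no result about those factors. NDUFAF2, a complex I factor, differed by −2.01, CMC2 and COA6 of complex IV by −2.85 and −2.26, BCS1L, which inserts the Rieske protein into complex III, by −1.34, and ATPAF1 and TMEM70 of complex V by −2.19 and −1.99. NUBPL, a complex I factor, had 13.4, 16.5 and 18.9 normalized reads at day 0 and a count of 0 in both plastic libraries of day 21. At a floor of 3 reads per library, 4.14 and 10.3 normalized reads, it was at least 1.58-fold lower there. Against plastic at day 21, ATPAF1 (2.08 and 1.90) and TMEM70 (1.62 and 1.76) were higher on both scaffolds, and ACAD9, a complex I factor, was lower (−1.38 and −1.67).

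Of 11 cristae and supercomplex factors, 7 fell and 1 rose on plastic at day 21 (background 24.1% and 21.2%). APOO of the cristae junction complex differed by −2.44, and CHCHD6 of the same complex rose from 6.93 to 7.89 at day 0 to 116 and 117 (log2 difference 3.83, SE 0.29). OPA1, the inner membrane fusion protein, was higher on the scaffolds than on plastic, by 2.97 and 3.03. Of 12 genes of mitochondrial DNA upkeep and transcription, 4 fell on plastic, 5 on the media scaffold and 3 on the smart scaffold relative to day 0 (background 24.1%, 14.9% and 14.1%), and the mitochondrial RNA polymerase POLRMT differed by −2.05, −2.08 and −1.60. Of 12 regulators of mitochondrial biogenesis, 2 rose and 1 fell on plastic (background 21.2% and 24.1%). SIRT3, a mitochondrial deacetylase, differed by 1.93 and GABPB1, part of a nuclear respiratory factor, by −2.43. PPARGC1A, the coactivator PGC-1 alpha, was picked after its values were seen. It had 12.4 and 17.2 normalized reads on plastic at day 21 against 4.80 to 7.74 at day 0 (log2 difference 1.21). Subunits encoded in mitochondrial DNA are not analysed here.

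Other forms of subunits and the switches of pyruvate oxidation were read as well. COX4I2, the hypoxia-linked form of COX4 that the symbol rule leaves out, had 1.41, 1.60 and 0 normalized reads at day 0. It had 84.2 and 72.2 on plastic at day 21, 26.3, 33.8, 40.5 and 128 on the media scaffold and 8.25, 6.07 and 4.60 on the smart scaffold. It rose in all 3 day 21 groups relative to day 0 (log2 differences 5.42, 4.69 and 1.96, sizes that rest on few day 0 reads and on the pseudocount). The last had limma adjusted p = 0.00683, and edgeR on the recovered reads gave an adjusted p of 0.0551. It was lower on the smart scaffold than on the media scaffold (log2 difference −2.73, SE 0.53, limma adjusted p = 0.0099), a call lost without the second (limma adjusted p = 0.0533) or the third (0.0592) smart scaffold library.

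NDUFA4L2, a hypoxia-linked relative of NDUFA4, had 229.9, 256 and 279 at day 0, 10.1, 16.1 and 7.14 on plastic at day 3, 12.4 and 6.87 on plastic at day 21, 498, 459.7, 562 and 1510 on the media scaffold and 79.2, 306 and 162 on the smart scaffold. It fell on plastic at day 3 (−4.46) and day 21 (−4.63) and rose on the media scaffold (1.38, and 0.99 and no call without the fourth library). It was lower on the smart than on the media scaffold (log2 difference −2.06, SE 0.43, limma adjusted p = 0.0194), which was lost without the first (limma adjusted p = 0.0846) or the third (0.0591) smart scaffold library, in a fit of these groups alone (0.142) and in edgeR (0.0595).

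PDK4, a kinase that shuts off pyruvate dehydrogenase, rose at each later time: from 1.97 to 4.22 at day 0 to 10.7 to 12.1 on plastic at day 3 (log2 difference 1.57), 175 and 92.8 on plastic at day 21 (4.94), 151 to 263 on the media scaffold (5.60) and 68.5 to 127 on the smart scaffold (4.46). The difference between the scaffolds (−1.14, limma adjusted p = 0.0362) was lost in 5 of the 7 fits that left out a library. PDK3, another form, had 148 to 177 at day 0, 63.5 and 13.7 on plastic at day 21, 365 to 394 on the media scaffold and 425 to 441 on the smart scaffold, and was higher on the scaffolds than on plastic by 3.62 and 3.81. PDP1, the opposing phosphatase, fell on plastic at day 21 (−2.92), by −1.91 without the first of those libraries.

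**Figure D5:**
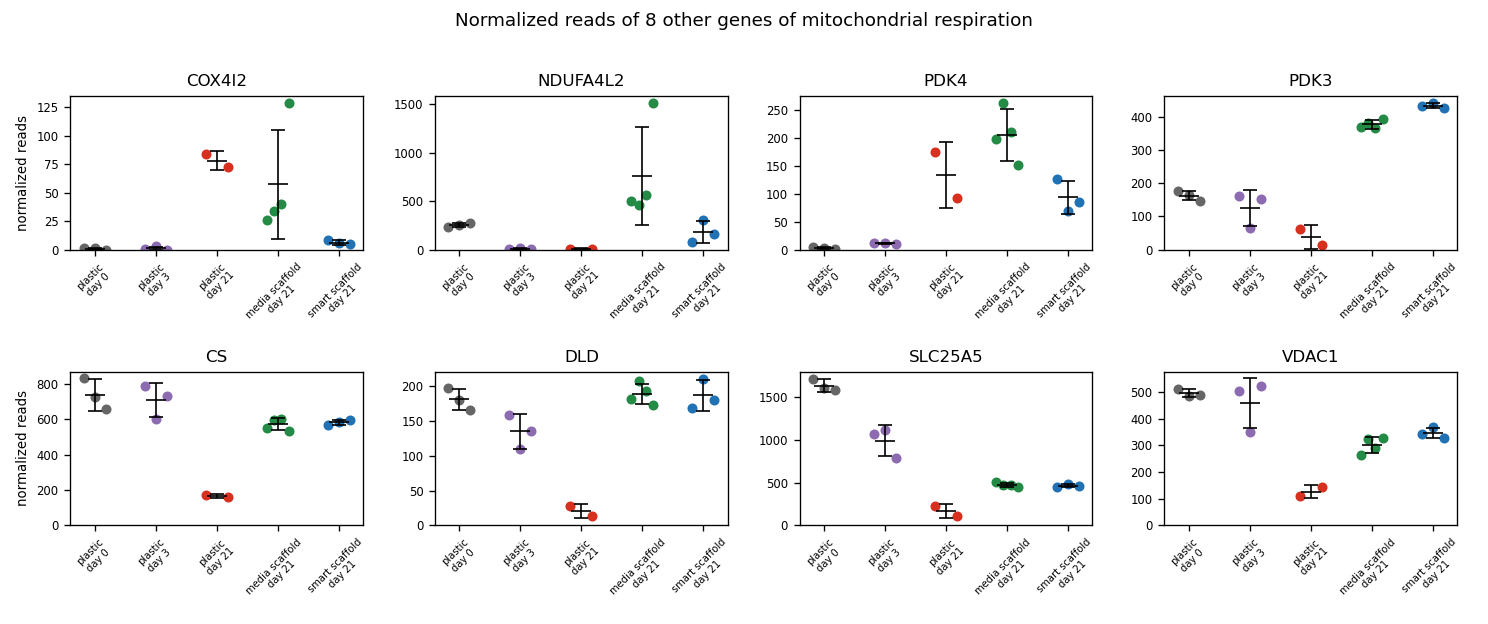
Each panel shows the normalized reads of 1 of 8 genes outside the subunit set in every library, by group, on a linear axis that starts at 0, with bars for the group mean and SD. COX4I2 and PDK4 are near 0 at day 0 and higher at day 21, the fourth media scaffold library stands above the rest for COX4I2 (128) and NDUFA4L2 (1510), and CS, DLD, SLC25A5 and VDAC1 are lowest on plastic at day 21.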

How the data were processed

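Total RNA of bovine mesenchymal stem cell cultures was sequenced by MARS-seq, per the labels' protocols. The submitters' processing notes name cutadapt, STAR, HTSeq, DESeq and the build ARS-UCD1.2, without versions or settings. The sources used here do not give the use of strand or molecular identifiers. Genes with near-identical or processed copies (CYCS and several small subunits), overlapping genes and antisense genes are therefore uncertain. The deposited table holds a normalized signal, which the authors made by dividing read counts by 1 factor per library. Columns were matched to 15 of 17 samples by title, and 2 columns matched none and were not used. After division by what 1 read is worth in each library, 100% of values were within 0.1 of a whole number.

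On the log2(value + 1) scale, limma (version 3.58.1, under R 4.3.3, with trend and robust settings) was run in 1 fit of all 15 libraries with a mean per group, for genes with a mean of at least 5 (10960 of 12894, leaving out 1934). Tests were two-sided. The 8 comparisons were each adjusted by the Benjamini-Hochberg method over all tested genes. The procedure was tested on simulated data. P-values set a group difference against the spread between libraries within groups, estimated over all groups together and moderated across genes. For the plastic group of day 21 that spread rests mostly on the other groups. Alternatives were pseudocounts of 0.5 and 4, no filter, a minimum mean of 20, 2 other scalings, the compared groups alone, array weights, a replicate block, edgeR 4.0.16 and DESeq2 1.42.0 on recovered reads, and leaving out each library. The members, gene lists and tests were chosen with earlier results of these data known. Most members named in detail were landmark subunits or, per comparison and direction, up to 10 called members with the largest change and no overlap. Others, such as NDUFB10, NDUFA2, SDHC, ATP5ME and ATP5IF1, were named outside this rule, with their values known. From each pathway list, the 2 called genes with the largest change could be named. Symbols were matched to RefSeq names (assembly ARS-UCD2.0) for 76 of 78 members, and for 78 with synonyms; coordinates and sequences are not printed. The values of 1 member enter the counts and sums but are not reported here.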

Additional observations from a re-analysis of the deposited data

Results flagged for a closer look

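The media scaffold group is the only one with enough libraries to ask whether 1 library stands apart. A library was singled out where its gap to the nearest other library, divided by the range of the 4, exceeded Dixon's 95% critical value for 4 samples; chance singles out about 1 group in 20. Of the 78 subunit genes examined, 4 were singled out. NDUFB2 had 921 normalized reads in the fourth library and 799.96 to 819 in the others, SDHD had 978 in the fourth and 1037 to 1047 in the others, and UQCRC1 had 1817 in the fourth and 2098 to 2129 in the others. UQCRQ had 2300.4 in the second library and 2025 to 2043 in the others.

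Of 60 other named genes, 7 were singled out. In the fourth library COX4I2 had 128 normalized reads (others 26.3 to 40.5), NDUFA4L2 had 1510 (459.7 to 562), PDK1 had 329.7 (221 to 229) and COQ8A had 89.8 (107 to 109). TOMM70 had 467 in the second library (425 to 431), SDHAF4 had 44.5 in the third (52.5 to 53.7) and CHCHD6 had 53.3 in the first (48.8 to 49.4).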

How the results depend on the processing

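No call of a named gene changed direction under any alternative run. Of the 84 calls of members, each refitted under 11 other settings and with each compared library left out (1375 values), 1344 stayed calls and 31 did not: 19 with a library left out, 5 at the same total, 4 under quantile normalization, 2 in DESeq2 and 1 with array weights. Of 2638 values for other named genes, 2557 stayed calls. Members called lower on plastic at day 3 numbered 0, but 1 with array weights and 1 in edgeR, and 0 to 2 with a library left out (1 without the second day 0 or second day 3 library, 2 without the third day 3 library). Over all tested genes, the lower calls numbered 409, but 570 with array weights, 463 in edgeR and 348 to 534 with a library left out. At the same total, 1 member rose and 9 fell on the media scaffold against day 0, beside 1493 and 2273 of all tested genes. On the smart scaffold 1 rose, beside 1421 of all tested genes.

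Summed levels moved by more than 1 SD at the same total. In normalized reads at day 0 these became 61473 for complex I, 7789 for II, 28849 for III, 342 for cytochrome c, 22684 for IV and 67699.5 for V. On plastic at day 3 they became 67627 for I, 8440.2 for II, 31767 for III, 24896 for IV and 69034 for V. On plastic at day 21 they became 6314 for II, 20465 for IV and 39769.6 for V, on the media scaffold 20639.8 for IV and 48318 for V, and on the smart scaffold 8539.9 for II.

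Replicate numbers gave no clear pairing of the libraries: 2 of 26 same-numbered pairs had deviations correlated above 0.1, and 4 of 15 libraries matched their own number best. Both of those pairs joined plastic libraries of day 3 and day 21, the first ones (0.157) and the second ones (0.112). No differently numbered pair exceeded 0.1. With so few libraries per group, this check cannot exclude pairing. The replicate block kept all 84 member calls, with 22 members lower on plastic at day 21 in place of 20. Over all tested genes it gave 2611 lower in place of 2636. Depth limits CYCS, COX7A2, COX7B and COX6B2, and both plastic libraries of day 21 carry every comparison with that group.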
